A study of Mus musculus with 8 samples.

Results

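The lncRNAs described here are long non-coding transcripts that overlap an exon of an annotated gene, in most cases a protein-coding one, on the same strand. Each is described with that host gene, of which it may itself be a transcript. They were chosen by the class given in the deposited annotation (exon sense-overlapping) and a length of at least 200 nt, with the small nucleolar RNA host genes Gas5 and Snhg left out. This gave 3787 lncRNAs of the 31549 in the table, at 2703 host names. For 3378 of them the host was found by its symbol among the 22481 mRNA genes, as 2603 hosts. RNA was sequenced from extracellular vesicles (EVs) of the heart of male C57BL/6J mice aged 10 weeks, with 1 library per mouse. The 4 IR mice had the left anterior descending coronary artery tied for 45 min and reperfused for 24 h. The 4 sham mice had the operation without this ischemia, and the labels name no transgene or drug for either group. The EVs were pelleted by ultracentrifugation from left ventricle digested with collagenase, so every vesicle that the digest released, from any cell type in it, could contribute.

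A host gene can yield messenger RNA and also transcripts that keep an intron, include an extra exon or end early and so do not encode the full protein. Some of these contain a premature stop codon and are removed by nonsense-mediated decay, and for genes of splicing factors such exons are a known means of limiting their own protein. Because these transcripts share exons with the messenger RNA, most short reads from the locus fit both, and the software that estimates transcript levels has to divide the reads between them.

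The libraries held 13824442 to 18501751 mRNA fragments in IR and 15908984 to 22497272 in sham, and 805140 to 1716306 lncRNA fragments in IR and 1276532 to 1842830 in sham. Genes of the absorptive cells of the intestine (8 markers, among them Apoa1, Fabp1 and Sis) summed to 20083 to 31172 FPKM in IR and 17455 to 22203 FPKM in sham. By contrast, 8 cardiomyocyte markers summed to 1.02 to 2.34 FPKM in IR and 2.42 to 3.01 FPKM in sham, and Myl2, Nppa and Mb had no fragment, so the defining markers of the labelled tissue were at or near 0. FPKM is the number of fragments per kilobase of transcript, scaled to the depth of the library.

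Exon structures could be read for 729 of the 3787 lncRNAs (19.3%), from RefSeq for 506 and GENCODE for 223, both on the genome build of the files (mm10). The others, mostly identifiers of the UCSC known gene set, had no exon model among the references and are named only. For 515 lncRNAs a coding transcript of the host was annotated as well, and the median share of lncRNA bases lying in exons of those coding transcripts was 98.5%. In 197 (38.3%) every base did. The median share lying in host coding sequence was 39.9%. Of the 490 spliced ones, 405 shared at least 1 splice junction with the host and 137 shared all of them, and in 76 (14.8% of the 515) an exon spanned a whole host intron. GENCODE classed 95 of its 223 as processed transcript, 45 as lincRNA, 31 as protein coding, 26 as antisense and 15 as retained intron.

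A pair of the RefSeq lncRNAs named below, at Rbm7 and Brd2, each hold an exon that no curated coding RefSeq or coding GENCODE transcript of the gene contains. They are shown because this exon is sequence of the lncRNA that those coding transcripts lack. Exons lying only partly outside the coding transcripts were not examined. Both sequences are from RefSeq, build GRCm38.p6 (mm10), written 5′ to 3′ on the minus strand. Capitals mark the exon, and the lower-case letters are 20 bases of intron on each side.
NR_037589 (Rbm7): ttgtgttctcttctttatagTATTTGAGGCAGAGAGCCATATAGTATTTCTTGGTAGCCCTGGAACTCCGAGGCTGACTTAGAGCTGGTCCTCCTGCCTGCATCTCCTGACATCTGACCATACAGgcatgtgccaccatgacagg
NR_037970 (Brd2): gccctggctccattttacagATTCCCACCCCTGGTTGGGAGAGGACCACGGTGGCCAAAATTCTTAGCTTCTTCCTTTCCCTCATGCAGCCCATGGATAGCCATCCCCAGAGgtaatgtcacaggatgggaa

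The exon of NR_037589 is exon 2 of 6, at chr9:48494283-48494387, in Rbm7, which encodes an RNA-binding subunit of a complex that guides the nuclear exosome to its targets. It is 105 nt long. Read in the frame of the 96 coding bases before it, the first stop codon, TAG, begins at base 22 of the exon. The exon of NR_037970 is exon 3 of 13, at chr17:34116598-34116689, in Brd2, a reader of acetylated histones. It is 92 nt long, which is not a multiple of 3, and holds no stop codon in the frame of the 330 coding bases before it.

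Of the 3787 lncRNAs, 2444 (64.5%) had at least 1 fragment in some library, and 1044 (27.6%) reached a mean of 0.5 FPKM over the 8 libraries and were tested. This share was 8.39% for intergenic, 10.2% for natural antisense and 25.6% for intron sense-overlapping lncRNAs of the same minimum length. Members were unevenly spread over hosts, with 2214 hosts holding 1 and 489 holding more. The host names with the most were FJ541121 (77 lncRNAs), LOC380994 (56) and 1700040F15Rik (38) on the Y chromosome, TCR-alpha chain (21) on chromosome 14 and Gm21256 (20) on the Y chromosome. None of the lncRNAs of the Y-linked names among these had a fragment in any library. Of the 21 at the T cell receptor alpha chain, 12 had a fragment and 2 were tested.

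In 944 pairs both lncRNA and host reached 0.5 FPKM, at 864 hosts. The lncRNA stood at a median of 16.8% of its host's mean FPKM, with quartiles at 7.30% and 42.1%. It exceeded the host in 71 pairs (7.52%) and was under 10% of it in 314 (33.3%). Library by library, the median ratio was 17.2%, 17.7%, 17.3% and 17.3% in IR 1 to IR 4 and 17.1%, 17.9%, 17.1% and 17.8% in sham 1 to sham 4, so the groups overlapped.

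**Figure D1:**
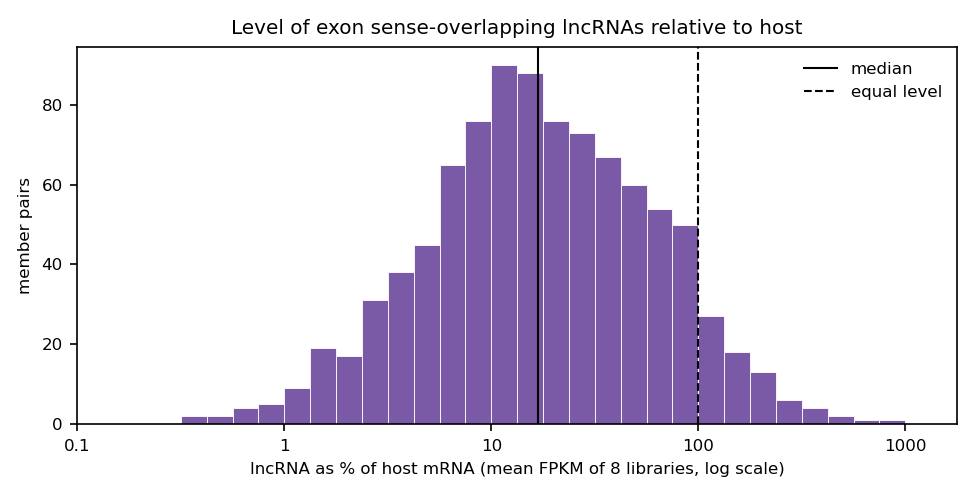
Histogram of the lncRNA level as a percentage of the host mRNA level (mean FPKM over 8 libraries, log axis) in 944 pairs, with the number of pairs on the vertical axis. The solid line is the median, 16.8%, and the dashed line marks equal levels, which 71 pairs exceeded.

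The most abundant members lay on the mitochondrial genome, where long transcripts are cut into messenger RNAs, and inside genes of basic cell function. uc009vfc.1, which overlaps mt-Nd5, a subunit of respiratory complex I, was listed at 706, 852, 589 and 714 FPKM in IR 1 to IR 4 and at 724, 573, 538 and 701 FPKM in sham 1 to sham 4. uc012hdm.1, on the opposite strand with mt-Nd6, another complex I subunit, was at 509, 751, 535 and 645 FPKM in IR and 864, 539, 584 and 567 FPKM in sham. DV658818 at Vdac2, a channel of the outer mitochondrial membrane, was at 274, 284, 317 and 230 FPKM in IR and 316, 318, 288 and 311 FPKM in sham, a level above that of Vdac2 mRNA in every library (205 to 245 FPKM in IR and 205 to 270 FPKM in sham). All 3 overlapped between the groups. uc009vew.1 at mt-Nd1, uc009vex.2 at mt-Nd2, uc009vey.1 at mt-Co1 and uc029rju.1 at the ribosomal protein gene Rpl41 completed the most abundant members with a host in the mRNA table. uc007pgi.1, a transcript of 356 nt in the immunoglobulin heavy chain region of chromosome 12, was listed at 322, 172, 289 and 236 FPKM in IR and at 75.3, 368, 115 and 103 FPKM in sham, and sham 2 lay above all IR libraries.

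The deposited counts show how fragments were divided at these loci. After division by the value of 1 fragment, only 10.3% to 11.6% of the members' values above 0 lay within 0.02 of a whole number in a library, against 58.5% to 59.8% for intergenic lncRNAs. For hosts with a single associated lncRNA whose own value was not whole (379 to 441 pairs per library, sums under 1000 fragments), the host value alone was whole in 0.928%, 1.00%, 1.47% and 1.81% of pairs in IR 1 to IR 4 and in 1.45%, 1.87%, 1.85% and 1.26% in sham 1 to sham 4. The sum of host and lncRNA was whole in 95.6%, 96.0%, 94.4% and 95.9% of the same pairs in IR and in 94.9% to 95.2% in sham. The 2 tables therefore hold complementary parts of one set of fragments at such loci, and a fragment given to the lncRNA is missing from the host. Fragment numbers given here for members are such estimated shares, rounded, and edgeR takes them as counts.

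**Figure D2:**
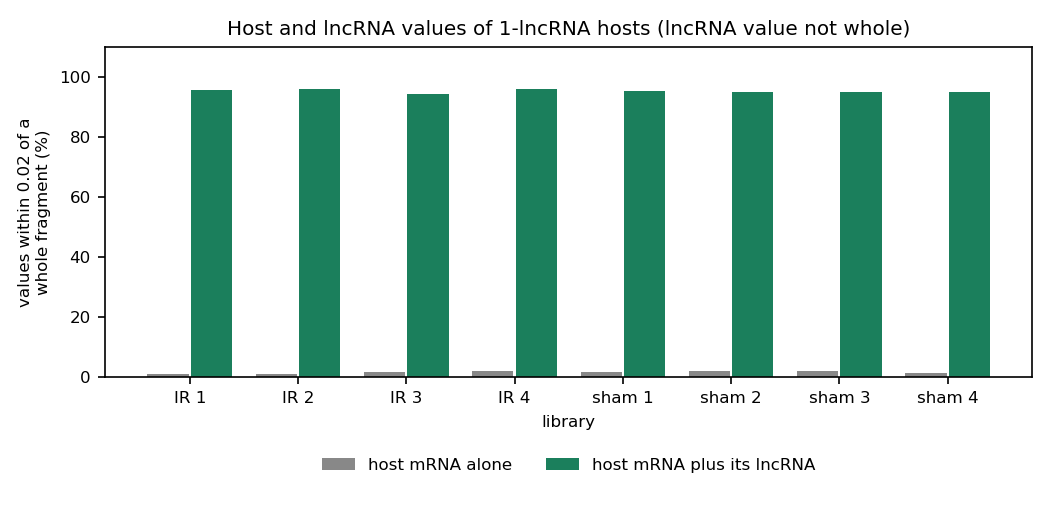
Percentage of values within 0.02 of a whole fragment in each library (IR 1 to 4, then sham 1 to 4), for hosts with 1 lncRNA whose own value is not whole. Gray bars are the host mRNA alone (0.928% to 1.87%) and green bars the sum of host and lncRNA (94.4% to 96.0%).

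Very small values were frequent among the members. Between 27.4% and 28.7% of members per library were listed above 0 but under 0.001 FPKM, against 5.86% to 6.35% of intergenic lncRNAs. Among the 1044 tested, 243 (23.3%) were under 0.001 FPKM in one library and at 1 FPKM or more in another, against 9.65% of intergenic and 4.95% of natural antisense lncRNAs. The spread between mice of one group was wide, with a median SD of log2(FPKM + 0.1) of 0.54 for the lncRNAs of the 944 pairs and 0.23 for their hosts. The lncRNA had the larger SD in 783 pairs (82.9%). In the 178 pairs whose levels lay within 2-fold of each other, the medians were 0.36 for the lncRNA and 0.30 for the host.

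Whether the lncRNAs differed between IR and sham EVs was tested with edgeR across all 3088 lncRNAs that reached 0.5 FPKM. None of the 1044 members passed an adjusted p of 0.05 with a fold change over 2, nor did any other lncRNA (0% called in each direction). At an unadjusted p under 0.05, 52 members were higher and 26 lower in IR (4.98% and 2.49%), against 4.31% and 2.75% of all lncRNAs tested. With a fold change over 2 as well, they were 26 and 10, where 1.78% and 0.81% of all lncRNAs passed. In either direction 7.06% of all lncRNAs passed the unadjusted threshold. By DESeq2, 6 members were called higher (uc009qri.1, uc008mrh.1, uc009bpc.2, uc007zhs.2, CN704592 and TCONS_00009539) and 3 lower (NR_037589, uc011ybn.1 and uc029rzx.1 at Txndc5), whereas 0 were called by limma on log2 of FPKM + 0.1. The share that DESeq2 called over all lncRNAs is not given here, so its counts do not set the members apart from other lncRNAs. Every IR value lay above every sham value in 20 members and below in 33, against 1.94% and 2.88% of all lncRNAs. In TMM-scaled fragments, the scaling used in the test, the balance turned to 33 members above and 25 below, of 95 and 67 among all 3088 lncRNAs. The median log2 fold change (IR over sham) of the members was 0.02, and that of all lncRNAs 0.01. In RNA of a whole vesicle preparation, fewer vesicles or cells of a type and less RNA in each cannot be told apart.

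The lncRNAs with the smallest p on the higher side lay at Fam214a, Polr3f, Cd200r1 and the T cell receptor delta locus. uc009qri.1 at Fam214a was at 1.89, 1.49, 2.22 and 1.69 FPKM in IR 1 to IR 4, against 0.702, 0.775, 0.644 and 0.815 FPKM in sham 1 to sham 4. The groups did not overlap, and the log2 fold change was 1.41 (SE 0.20, adjusted p = 0.276 by edgeR). uc008mrh.1, within Polr3f, a subunit of RNA polymerase III, was at 1.12, 1.03, 1.35 and 0.847 FPKM in IR and 0.434, 0.194, 0.0824 and 0.246 FPKM in sham. These values rest on 46 to 76 estimated fragments in IR and 7 to 26 in sham, again without overlap (log2 fold change 2.32, SE 0.44, adjusted p = 0.367 by edgeR).

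The next came from genes of immune cells. uc007zhs.2, at Cd200r1, an inhibitory receptor of myeloid cells, was at 0.626, 0.588, 1.07 and 0.765 FPKM in IR and at 0.266, 0.255, 0.249 and 0.421 FPKM in sham (log2 fold change 1.45, SE 0.29, adjusted p = 0.367 by edgeR). TCONS_00009539, at Tcrd, which encodes the delta chain of the T cell receptor, was at 2.38, 1.49, 2.27 and 3.15 FPKM in IR and at 0.664, 1.21, 0.767 and 0.958 FPKM in sham (log2 fold change 1.44, SE 0.29, adjusted p = 0.367 by edgeR). Neither overlapped between the groups. Tcrd was not among the mRNA symbols, so no host value is given.

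Of the remaining members on this side, NR_015614 (E230029C05Rik) was at 1.04, 0.788, 0.959 and 1.24 FPKM in IR and 0.647, 0.563, 0.605 and 0.516 FPKM in sham, with a log2 fold change of 0.88 (SE 0.19). uc007oeu.2 at Zfp410, a zinc finger transcription factor, was at 3.08, 3.77, 3.22 and 3.56 FPKM in IR and 2.70, 2.62, 2.37 and 2.27 FPKM in sham, a smaller difference (log2 fold change 0.55, SE 0.13). Zfp410 holds other lncRNAs too, and their fragments were added in CPM (fragments relative to the TMM-scaled mRNA depth). All lncRNAs at Zfp410 together overlapped, at 19.38 to 26.19 CPM in IR and 13.54 to 20.63 CPM in sham. CN704592 at Csnk1e, a casein kinase, rested on few fragments, 6, 10, 20 and 2 in IR and 0 in each sham library. uc009bpc.2, on chromosome 6 with a host named HY, had 34, 12, 4 and 72 fragments in IR and 2, 0, 0 and 2 in sham. For the last 2 the fold change is not given, because the fitted value of so few fragments depends on the prior count.

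On the lower side, the leading lncRNA was NR_037589, the Rbm7 transcript with the additional exon shown above. It was at 1.16, 0.884, 0.836 and 2.46 FPKM in IR 1 to IR 4, against 2.97, 3.50, 5.42 and 3.92 FPKM in sham 1 to sham 4, from 27 to 75 fragments in IR and 99 to 254 in sham. The groups did not overlap (log2 fold change -1.51, SE 0.34, adjusted p = 0.405 by edgeR). Rbm7 mRNA was at 12, 10.5, 12.7 and 14.7 FPKM in IR and 13, 13.8, 9.15 and 11.2 FPKM in sham, with overlap.

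uc007cyp.1 at Ivns1abp, a kelch protein that binds actin and the influenza NS1 protein, was the most abundant of this side, at 29.1, 22.3, 21.7 and 29.8 FPKM in IR and 44.3, 35.9, 46.5 and 65.1 FPKM in sham (log2 fold change -0.81, SE 0.19, adjusted p = 0.430 by edgeR). uc008bwh.1 at Akap8, a nuclear anchor of protein kinase A, was at 2.55, 3.17, 3.49 and 4.63 FPKM in IR and 5.91, 4.95, 5.67 and 5.52 FPKM in sham (log2 fold change -0.59, SE 0.15). Akap8 mRNA did not overlap either, at 5.77, 6.45, 5.52 and 6.51 FPKM in IR and 10.2, 8.67, 7.21 and 9.16 FPKM in sham. Without overlap in the lncRNA were also uc008rui.2 at Rabggtb, which prenylates Rab proteins (log2 fold change -0.62, SE 0.17), 2_00027015 at Snrpa1, a protein of the U2 spliceosomal particle (-0.92, SE 0.25), and uc009cpu.1 at Cct7, a chaperonin subunit (-0.60, SE 0.19). Akap8 and Rabggtb hold other lncRNAs too. All lncRNAs at Akap8 together overlapped, at 26.24 to 31.58 CPM in IR and 28.54 to 34.85 CPM in sham. Those at Rabggtb also overlapped, at 13.99 to 19.25 CPM in IR and 13.65 to 25.46 CPM in sham. The separation at Akap8 and Rabggtb was thus that of the named transcript and not of all lncRNAs of the gene. uc011ybn.1 at Myo19, a myosin of mitochondria, had 0, 0, 8 and 9 fragments in IR and 58, 24, 86 and 62 in sham (log2 fold change -3.34, SE 0.89, adjusted p = 0.574 by edgeR). uc009bxq.1 at Hnrnpa2b1, an RNA-binding protein of spliceosomes, had 0, 0, 0 and 2 fragments in IR and 11, 2, 6 and 7 in sham, and IR 4 and sham 2 overlapped in FPKM. All lncRNAs at Hnrnpa2b1 together overlapped as well, at 0 to 0.80 CPM in IR and 0.27 to 0.71 CPM in sham, with IR 1 the highest library.

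**Figure D3:**
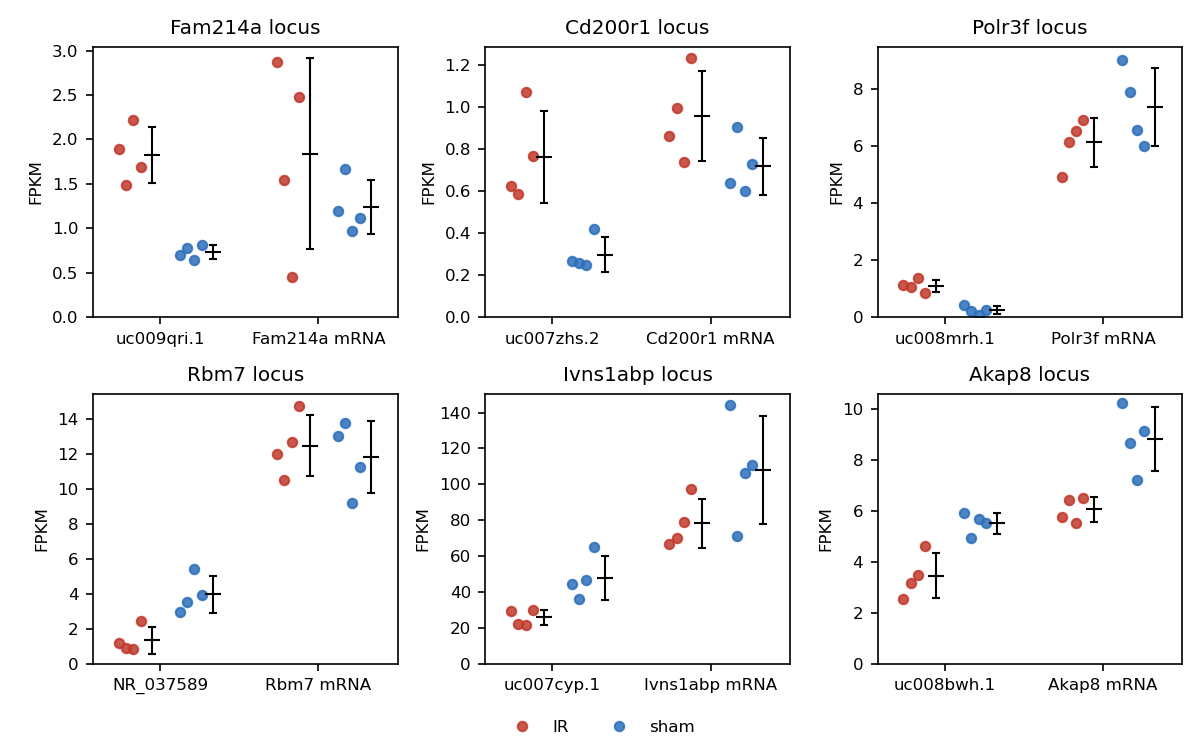
FPKM of 6 lncRNAs (left in each panel) and of the mRNA of their host (right), 1 point per mouse, IR in red left of sham in blue, with mean ± SD (n = 4 each) beside the points. The lncRNA points of IR and sham do not overlap in any panel. These lncRNAs were chosen among those with the smallest p, so their separation follows in part from that choice. The hosts were not chosen by their own values, so the panels are no comparison of lncRNAs with hosts. Of the host mRNAs, only that of Akap8 is separated (5.52 to 6.51 FPKM in IR and 7.21 to 10.2 FPKM in sham).

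The members that passed the unadjusted threshold with a fold change over 2 included many that were almost absent from some library. Of the 26 higher, 13 (50.0%) were under 0.001 FPKM in at least 1 library, and of the 10 lower, 5 (50.0%), against 247 of the 1044 tested (23.7%). A value near 0 in a library itself enlarges a fold change, so these shares are a description of the members concerned.

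Some further members overlap genes that the study lists for its changed lncRNAs, a list chosen on these samples and so not independent evidence of direction. Fam214a, Cd200r1, Tcrd, E230029C05Rik, Rbm7 and Ivns1abp, described above, are on that list too. uc008uzu.1 at Laptm5, a lysosomal membrane protein of blood cells, was at 16.2, 5.6, 11.1 and 14.2 FPKM in IR and 3.79, 9.69, 4.61 and 6.66 FPKM in sham, with IR 2 below sham 2 and sham 4. uc009hcl.2 at Svip, which restrains the degradation of proteins of the endoplasmic reticulum, was at 5.04, 5.69, 6.57 and 6.94 FPKM in IR and 13.5, 5.44, 11.0 and 11.8 FPKM in sham, with sham 2 among the IR values. NR_033139 (AI427809) was at 4.05, 1.95, 5.69 and 2.06 FPKM in IR and 1.45, 2.77, 1.24 and 1.26 FPKM in sham, with overlap through sham 2.

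Whether a lncRNA moved apart from its host was tested on the within-library ratio, log2((lncRNA FPKM + 0.1)/(host FPKM + 0.1)), with limma over 1797 pairs of all lncRNA classes. None of the 944 member pairs passed an adjusted p of 0.05 (0% of all pairs called). At an unadjusted p under 0.05, 33 ratios were higher and 24 lower in IR, 3.50% and 2.54% of the member pairs, against 3.39% and 3.01% of all pairs (6.4% in either direction). The median difference was -0.02 for members and for all pairs. The ratio was separated between the groups in 26 pairs above and 10 below, against 2.67% and 1.89% of all pairs.

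The smallest p belonged to Polr3f, where the ratio differed by 2.15 (SE 0.32, adjusted p = 0.324 by limma) with no overlap. Polr3f mRNA was at 4.92, 6.12, 6.51 and 6.91 FPKM in IR 1 to IR 4 and 9.01, 7.87, 6.55 and 5.98 FPKM in sham 1 to sham 4. Where a lncRNA is near 0 in some libraries, the size of the ratio is set largely by the pseudocount, so for such loci the value with 1 FPKM in place of 0.1 is given as well, which at Polr3f was 0.98. At Csnk1e, whose lncRNA had no fragment in sham, the ratio had an adjusted p of 0.333 by limma and its size is not given. Csnk1e mRNA was at 3.47 to 4.72 FPKM in IR and 4.42 to 7.95 FPKM in sham. uc007ztk.1 at Gabpa, an ETS transcription factor, was at 2.18, 0.780, 2.86 and 0.750 FPKM in IR and 6.6e-05, 0.00014, 0.510 and 0.000678 FPKM in sham, and the ratio differed by 3.56 (SE 0.72), or 1.46 with a pseudocount of 1 FPKM. uc007kxr.2 at Mbtd1, a reader of methylated histones, had 85, 0, 113 and 159 fragments in IR and 0 in each sham library, so again no size of the ratio is given. It thus had fragments in 3 of 4 IR libraries and in no sham library. A pair of RefSeq transcripts had fragments in every library, NR_037590 at Wls, which carries Wnt proteins to the cell surface (0.83, SE 0.25), and NR_045038 at Zfp207, a kinetochore protein (0.87, SE 0.26).

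On the lower side the ratio differed by -4.90 (SE 0.96, adjusted p = 0.583 by limma) for uc009rzm.2 at Cmc1, a factor of cytochrome oxidase assembly. This lncRNA had 0, 0, 21 and 0 fragments in IR and 90, 84, 67 and 94 in sham, and with a pseudocount of 1 FPKM the difference was -2.42. NR_037589 at Rbm7 was at -1.68 (SE 0.38, adjusted p = 0.626 by limma) and uc011ybn.1 at Myo19 at -2.48 (SE 0.57), or -0.75 with a pseudocount of 1 FPKM. For uc007rnw.1 at Gfm2, a mitochondrial translation factor, the difference was -3.10 (SE 0.79), or -1.10 with a pseudocount of 1 FPKM, on 0, 0, 4 and 0 fragments in IR and 6, 9, 10 and 4 in sham. For uc009bxq.1 at Hnrnpa2b1 it was -3.69 (SE 0.97), or -1.46 with a pseudocount of 1 FPKM. NR_045517 at Cldn25 was well covered, at 19.1, 17.7, 22.5 and 25.5 FPKM in IR and 25.9, 24.7, 27.3 and 28.0 FPKM in sham, and its ratio differed by -0.88 (SE 0.26).

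The host mRNAs were tested with edgeR over all 12716 mRNAs that reached 0.5 FPKM, in the same libraries as the lncRNAs and, at shared exons, on complementary parts of the same fragments. None of the 1888 hosts tested passed an adjusted p of 0.05 with a fold change over 2 (0% of all mRNAs called). At an unadjusted p under 0.05, 75 hosts were higher and 78 lower in IR, 3.97% and 4.13% of hosts, against 4.87% and 4.86% of all mRNAs (9.73% in either direction). With a fold change over 2 as well, they were 14 and 4, against 1.19% and 0.472% of all mRNAs. By DESeq2, 6 hosts were called higher (Cd244, Cmah, Fyb, Klrd1, Acap1 and Sh2d3c) and 0 lower, whereas limma on log2 of FPKM + 0.1 called 0. The share that DESeq2 called over all mRNAs in each direction is not given here, so its counts do not set the hosts apart from other mRNAs. Every IR value lay above every sham value in 15 hosts and below in 70, against 0.873% and 4.37% of all mRNAs. In TMM-scaled fragments these were 40 hosts above and 43 below, of 299 and 343 among all 12716 mRNAs, so the lean to lower values in FPKM was not present under the scaling used in the test.

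Several of the hosts with the smallest p carried a lncRNA at or near 0. Cd244, a receptor of natural killer cells, was at 4.77, 3.34, 4.33 and 4.59 FPKM in IR and 1.32, 2.59, 1.83 and 2.30 FPKM in sham (log2 fold change 1.17, SE 0.21, adjusted p = 0.439 by edgeR). Its lncRNA uc029qup.1 was under 0.001 FPKM in every library. The same was true of uc009egc.2 at Klrd1, another receptor of natural killer cells, and of uc007pvx.2 at Cmah, an enzyme of sialic acid synthesis. At Acap1, a trafficking protein, the lncRNA uc007jsi.1 was tested and had a log2 fold change of 0.83, beside 1.24 (SE 0.29) for the mRNA. On the lower side were Kcnq1, a potassium channel (5.77, 5.90, 5.28 and 7.63 FPKM in IR and 12.7, 9.22, 9.81 and 12.6 FPKM in sham, log2 fold change -0.75, SE 0.14), and Rps27, a ribosomal protein (log2 fold change -0.54, SE 0.13). The lncRNA NR_033727 at Rps27 was at 33.2, 21.6, 34.7 and 46.2 FPKM in IR and 47.6, 34.4, 37.0 and 48.5 FPKM in sham, with overlap.

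As host and lncRNA shared fragments, each host was also fitted with the fragments of all its members added, a choice made after the data were seen. In the hosts of tested pairs, members held a median of 10.1% of these summed fragments (quartiles 3.18% and 25.8%). Over the 1888 hosts, 74 sums were higher and 71 lower at an unadjusted p under 0.05, and 62 and 59 of these were among the hosts counted above. In CPM (fragments relative to the TMM-scaled mRNA depth), Polr3f mRNA had 18.9, 18.6, 19.2 and 24.7 CPM in IR and 27.9, 27.1, 27.5 and 24.8 in sham, and its sum 23.3, 22.9, 24.4 and 27.7 in IR and 29.4, 27.7, 27.8 and 25.8 in sham. In CPM the mRNA alone was narrowly separated and the sum overlapped, with log2 fold changes of -0.40 (SE 0.12) for the mRNA and -0.17 (SE 0.10) for the sum. In FPKM the mRNA overlapped too, at 4.92 to 6.91 in IR and 5.98 to 9.01 in sham, so its separation depended on the scaling.

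Polr3f and the loci in this paragraph were named for the ratio of lncRNA to host, and a sum lies between its parts, so a sum unlike the mRNA follows in part from that choice and the values are a description. At Gabpa the log2 fold change was -0.37 for the mRNA and -0.15 (SE 0.11) for the sum. At Mbtd1 the values were -0.36 and -0.16 (SE 0.13), at Zfp207 -0.26 and -0.15 (SE 0.10), and at Wls -0.54 and -0.08 (SE 0.18). At Cldn25 the mRNA had a log2 fold change of 0.64 (SE 0.25) and the sum -0.07 (SE 0.11), and at Cmc1 0.47 (SE 0.29) and -0.45 (SE 0.15), so the sign differed between mRNA and sum. Rbm7, whose lncRNA was lower, had a sum of 27.2, 25.4, 27.8 and 32.2 CPM in IR and 29.0, 32.0, 30.1 and 30.5 in sham, and these overlapped.

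At other loci the sum kept the difference. These were named for a small p of their lncRNA, whose fragments are part of the sum. A sum that differs between the groups therefore follows in part from that choice, and the values are a description. For Fam214a the sum was 22.8, 12.6, 16.6 and 20.03 CPM in IR and 6.74, 9.36, 7.38 and 8.28 in sham, with a log2 fold change of 1.18 (SE 0.20, adjusted p = 0.395 by edgeR), while the mRNA alone overlapped (0.68, SE 0.44). For Cd200r1 the sum was 4.29, 4.88, 5.89 and 4.57 in IR and 2.13, 2.65, 1.88 and 3.15 in sham (log2 fold change 1.00, SE 0.22). For Akap8 it was 57.3, 59.9, 50.7 and 56.7 in IR and 74.4, 62.7, 62.1 and 68.6 in sham (-0.25, SE 0.09). For Ivns1abp the log2 fold change of the sum was -0.52 (SE 0.18), with sham 2 among the IR values. The sums at Fam214a, Cd200r1 and Akap8 were thus separated between the groups, and of their mRNAs alone only that of Akap8 was. None passed an adjusted p of 0.05.

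**Figure D4:**
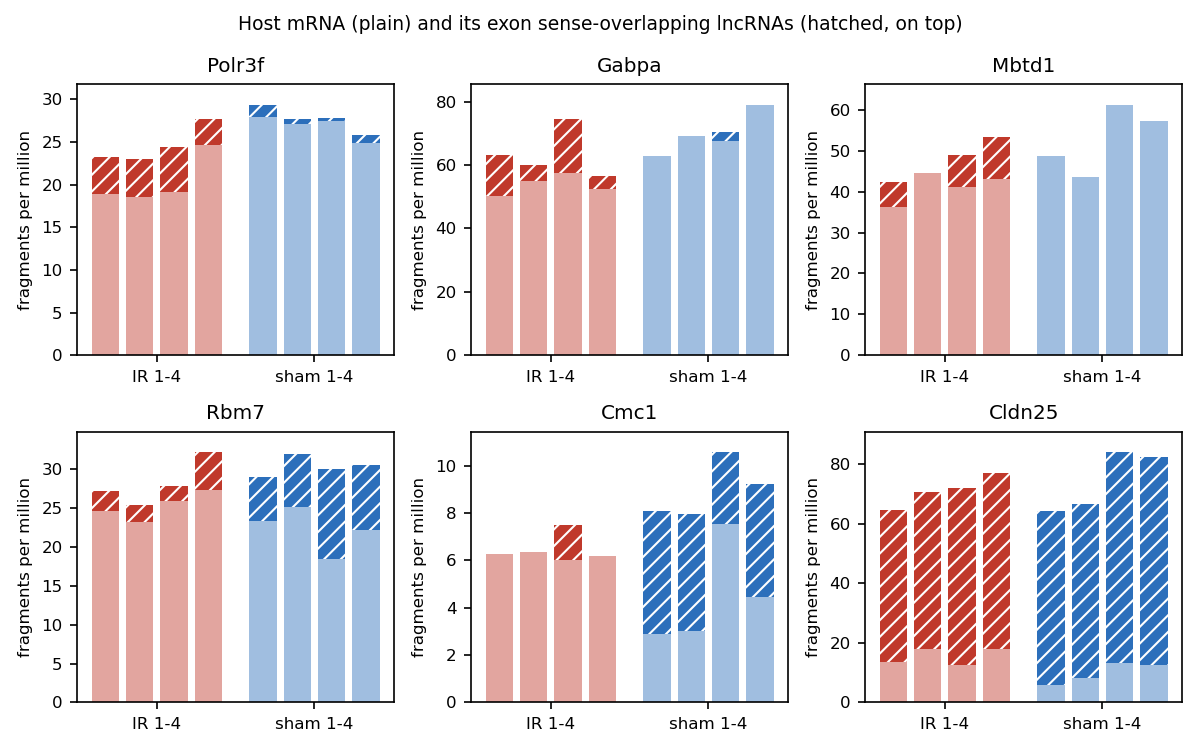
CPM (fragments relative to the TMM-scaled mRNA depth) of the host mRNA (plain) and of its lncRNAs (hatched, stacked on top) in each library, IR 1 to 4 in red left of sham 1 to 4 in blue, at 6 loci. At Polr3f the plain bars are 18.6 to 24.7 in IR and 24.8 to 27.9 in sham, while the whole bars are 22.9 to 27.7 in IR and 25.8 to 29.4 in sham.

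**Figure D5:**
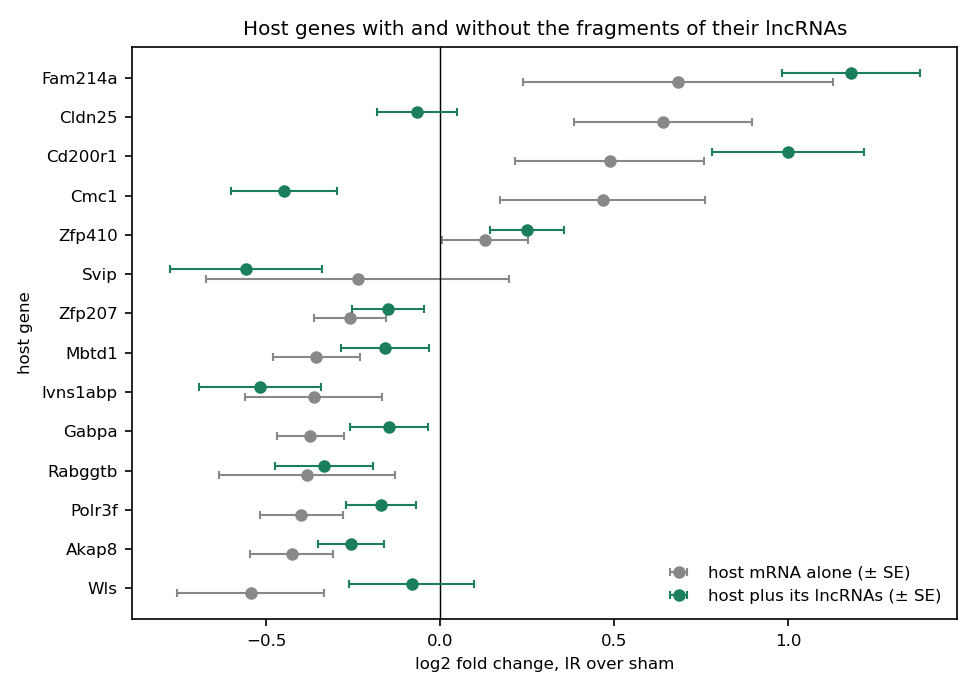
Log2 fold change (IR over sham, ± SE, edgeR) of 14 named hosts from the mRNA alone (gray) and with the fragments of their lncRNAs added (green). Cldn25 and Cmc1 change sign when the lncRNA fragments are added, and the value at Wls is -0.54 alone and -0.08 with them.

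Grouped by the function of the host, the lncRNAs at lymphocyte and leukocyte genes had the highest median. Of 12 tested, 4 were higher and 0 lower at an unadjusted p under 0.05, the threshold for higher and lower in all the lists here, with a median log2 fold change of 0.49 against 0.01 for all lncRNAs. At this threshold 4.31% of all lncRNAs were higher and 2.75% lower, and 4.87% and 4.86% of all mRNAs. None passed the adjusted threshold. The 4 were uc007zhs.2 at Cd200r1, uc008uzu.1 at Laptm5, uc009sgo.1 at the chemokine receptor Ccr9 (0.96, SE 0.38) and uc008chb.2 at H2-Q6 (0.84, SE 0.33). H2-Q6 belongs to a family of near-identical class I histocompatibility genes, so its fragments are uncertain. Among the 25 hosts tested, 5 were higher (Cd244, Fyb, Klrd1, H2-Q1 and H2-Q6) and 0 lower, with a median of 0.43. With 1 library left out, the lncRNAs higher were between 1 (without IR 1, IR 3 or sham 4) and 5 (without sham 2), with 2 without IR 4, sham 1 or sham 3 and 4 without IR 2, and 1 was lower without IR 1 or without sham 1. The hosts higher were 4 to 7, except 15 without sham 2, and 8 by DESeq2. The 6 leukocyte markers, among them Ptprc and Cd3e, summed to 328 to 662 FPKM in IR and 135 to 420 FPKM in sham, and their part in these differences was not tested.

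The hosts that encode cytosolic ribosomal proteins had the lowest median. Of 7 tested, 5 were lower (Rpl19, Rpl23, Rpl41, Rps27 and Rpsa) and 0 higher, with a median log2 fold change of -0.43 against 0.00 for all hosts. These 5 compare with 4.86% of all mRNAs, and they were 2 without IR 2 or without sham 1, 3 without IR 3 and 4 to 6 with any of the others left out. Ribosomal protein genes have many processed copies in the genome, so their fragments are uncertain. Their lncRNAs were 5 in number, with 1 lower, uc009sch.1 at Rpsa (-1.31, SE 0.47), and a median of -0.22. At Rpl24 the lncRNA ENSMUST00000122365 was more abundant than the mRNA, at 31.8, 37.1, 56.2 and 71.7 FPKM in IR and 80.3, 59.2, 62.6 and 59.3 FPKM in sham, against 6.18 to 8.83 FPKM in IR and 7.16 to 9.61 FPKM in sham for the mRNA.

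Splicing factor genes had the most tested members of the 12 lists, 31 lncRNAs, with 1 higher, 4 lower and a median of -0.05. The higher one was uc008nmu.1 at Rbm39 (35.9, 27.2, 38.4 and 37.5 FPKM in IR and 30.7, 29.7, 27.2 and 25.5 FPKM in sham, log2 fold change 0.40, SE 0.14). The lower ones were NR_037589, 2_00027015, uc009bxq.1 and uc007dvc.2 at Hnrnpu (-0.25, SE 0.10). At Snrnp70, of the U1 particle, uc009gux.1 exceeded the mRNA in every library, at 15.4 to 20.4 FPKM in IR and 16.6 to 19.9 FPKM in sham. Of their 40 hosts tested, 1 was higher (Celf2) and 3 lower (Luc7l, Rbm19 and Snrpg), against 4.87% and 4.86% of all mRNAs. The 3 lower became 0 without IR 3 or without sham 1, 1 without sham 2, 2 to 4 with any of the others left out, and 2 by DESeq2.

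For chromatin and transcription regulators, 1 of 19 lncRNAs was higher, uc011zmr.1 at Setdb2 (1.01, SE 0.38), with a median of 0.13. NR_037970, the Brd2 transcript with the extra exon shown above, was at 8.74, 12.1, 13.2 and 11.8 FPKM in IR and 10.3, 12.3, 10.4 and 9.83 FPKM in sham, with overlap. Ubiquitin ligases and adaptors had 2 of 19 lower (at Ivns1abp and Svip, both on the study's list) and a median of -0.08. RNA decay genes had 1 of 8 lower, NR_037589 again, and a median of -0.04.

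Genes of vesicle trafficking had 0 of 11 lncRNAs at an unadjusted p under 0.05, respiratory chain genes 0 of 9, stress response genes 0 of 6 and translation factors 0 of 1 (edgeR). Among the trafficking genes, uc008opv.1 at Chmp4c, a subunit of the membrane-cutting ESCRT machinery, was above its host in every library, at 51.5 to 57.9 FPKM in IR and 44.1 to 62.9 FPKM in sham. Of the cardiomyocyte list, 3 lncRNAs were tested, at Atp2a2 and Kcnq1, and 1 was lower, uc012fxv.1 at Kcnq1 (-1.21, SE 0.47). The 8 cardiomyocyte markers summed to at most 3.01 FPKM in a library, so the name of this list is no statement about the cells present. NR_027838 at Atp2a2, the calcium pump of the sarcoplasmic reticulum, was at 7.06, 5.34, 7.50 and 7.77 FPKM in IR and 9.60, 8.03, 4.71 and 9.78 FPKM in sham. The host on the list of absorptive cell genes was Sis, the intestinal sucrase-isomaltase, with uc008pmr.1 at 27.6, 18.7, 34.3 and 39.6 FPKM in IR and 17.4, 24.8, 27.2 and 22.5 FPKM in sham. Sis mRNA was at 1835, 1419, 1459 and 1919 FPKM in IR and 1207, 1193, 1090 and 1104 FPKM in sham, so the mRNA was separated and the lncRNA was not.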

How the data were processed

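Cardiac EV RNA of 4 IR and 4 sham mice was sequenced by the authors as stranded paired-end libraries after removal of ribosomal RNA. The submitters' processing notes name cutadapt 1.9.3, HISAT2, Cufflinks and Cuffdiff on mm10; their other versions, the strand setting and the annotation are not given in the sources used here. The authors deposited FPKM values and estimated counts, which carry 1 scaling factor per library. For transcripts listed more than once the first entry was used. The estimated counts were divided by the value of 1 fragment (0.763 to 1.18) and rounded to whole numbers. The tests set the difference between IR and sham against the spread between the libraries of a group, 1 per mouse. This spread was not split into its sources.

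IR was compared with sham with edgeR 4.0.16 (TMM, robust quasi-likelihood, two-sided) in R 4.3.3, over every lncRNA or mRNA with a mean of at least 0.5 FPKM. Ratios were tested with limma 3.58.1 (pseudocount 0.1 FPKM). p-values were adjusted by Benjamini-Hochberg over all features tested. DESeq2 1.42.0, limma on log2 FPKM, other filters, scalings and pseudocounts, the replicate number as a block and each library left out were alternatives. The scripts were tested on simulated data. Gene symbols of hosts that differ from those of the mRNA table were not matched. Exons were read from RefSeq (GRCm38.p6) and GENCODE vM21. Python 3.11.15 with pandas 2.3.3 and matplotlib 3.10.9 was used.

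Named lncRNAs were those whose host the study lists for its changed lncRNAs, the 8 most abundant, the 8 with the smallest edgeR p in each direction, the 6 pairs with the smallest ratio p in each direction, and up to 3 abundant members of each of 12 host lists, with the 5 host names holding most members. Other hosts and list members named with their values, including those past the unadjusted threshold, were chosen after their values were seen. The members and lists were chosen with earlier results of these data known.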

Additional observations from a re-analysis of the deposited data

Results flagged for a closer look

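Of 62 groups of 4 libraries examined among the named lncRNAs, 9 (14.5%) held a library far from the other 3 by Dixon's criterion. Chance alone meets it in about 1 of 20 groups of normally distributed values. The FPKM here include values near 0, and the lncRNAs were named in part for their values, so these shares cannot be compared. At uc009bxq.1 (Hnrnpa2b1), IR 4 was at 1.38 FPKM and the other IR libraries at 1.52e-100 to 3.18e-72. At uc009rzm.2 (Cmc1), IR 3 was at 1.24 FPKM and the others at 0.000174 to 0.0011. At uc007rnw.1 (Gfm2), IR 3 was at 0.936 FPKM and the others at 6.34e-37 to 0.00172. At uc007ztk.1 (Gabpa), sham 3 was at 0.51 FPKM and the other sham libraries at 6.6e-05 to 0.000678. In these 4 groups the distant library was the one to which fragments had been assigned.

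In the others every library had a level well above 0. The Snrpa1 lncRNA 2_00027015 stood apart in both groups, at 2.34 FPKM in IR 1 (1.78 to 1.87 in the other IR libraries) and 5.24 FPKM in sham 2 (3.37 to 3.65 in the other sham libraries). Sham 2 was also highest for uc007pgi.1 (Gm16844), at 368 FPKM (75.3 to 115 in the others), and NR_033139 (AI427809), at 2.77 FPKM (1.24 to 1.45). For uc012hdm.1 (mt-Nd6), sham 1 was at 864 FPKM and the others at 539 to 584.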

How the results depend on the processing

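Against 0 calls in each direction by edgeR, DESeq2 called 6 members higher and 3 lower and 6 hosts higher, and testing without a filter on low values called 1 member lower. Before adjustment, a p under 0.05 and more than a 2-fold change gave 26 members higher and 10 lower and 14 hosts higher and 4 lower, and p alone gave 33 ratios higher and 24 lower. Leaving out 1 library gave 0 to 1 members higher (1 without IR 2), 0 to 1 lower (1 without IR 3), 0 to 1 hosts higher (1 without sham 2), 0 to 1 ratios higher (1 without IR 2 or IR 4) and 0 to 2 lower (2 without IR 3, 1 without IR 4 or sham 2). The named calls among these were uc007kxr.2 (lncRNA and ratio, without IR 2), uc009rzm.2 (both) and the ratio of uc007rnw.1 (without IR 3), and the ratios of CN704592 and uc009bxq.1 (without IR 4). The cause was not tested. The Svip mRNA change ran from -0.50 to 0.13 with a library left out, positive without sham 3. With the fragments of host and lncRNAs added, Cmc1 was at -0.45 and Cldn25 at -0.067, where the construction of the sum returns the fragments held by the lncRNA. Over all members the median level was 2.8e-05 FPKM and the median ratio to host 11.1%, and with 1 member per host 1.85 FPKM and 18.4%. In deviations of log2(FPKM + 0.1) from the mean of the own group, same-numbered IR and sham libraries correlated between -0.29 and 0.09. These values showed no clear pairing by number, and the fit with the replicate number as a block called 0 members, 0 hosts and 0 ratios. Among the other alternatives for named items, 174 lncRNA values, 96 host values and 41 ratios kept their direction and side of the threshold, and 8 lncRNAs were called, all by DESeq2. Whether members under 0.001 FPKM in some library were absent or had their fragments assigned to the host was not tested. With 4 mice per group and the wide spread of the lncRNAs, differences may have been missed, and the smallest detectable one is not given here.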
